A study of Mus musculus with 4 samples.

Results

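The dendritic cell-like cells of 4 mouse medulloblastomas of the Sonic hedgehog (SHH) subgroup were 89 of the 6509 cells profiled. They were chosen by their transcripts. A cell was a member when its deposited log2 value of H2-Ab1 was at least 3, when at least 2 of the 7 genes Xcr1, Clec9a, Ccr7, Ccl22, Ccl17, Cd209a and Il4i1 gave a UMI (unique molecular identifier, a captured transcript), and when the mean value of C1qa, C1qb and C1qc was below 1. All of the tumours came from Ptch1+/- mice that had been irradiated at birth, were taken at end point and carry no treatment in the labels, so they form 1 group without a control. Ptch1 encodes the hedgehog receptor, which restrains the pathway, and cerebellar granule neuron progenitors are the source of such tumours. The tumours are numbered 1 to 4 in the labels, with no statement that 4 mice were used, so they may not be independent animals. Cell suspensions were stored frozen, thawed and sorted for live cells before droplet sequencing, so every share below is a share of the live-sorted cells of a thawed suspension.

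Dendritic cells take up antigen, load its peptides onto major histocompatibility complex (MHC) class II and class I molecules and present them to T cells. Type 1 conventional dendritic cells depend on Batf3 and Irf8, carry the chemokine receptor Xcr1 and the dead-cell receptor Clec9a, and are known for presenting engulfed antigen on class I. Type 2 conventional dendritic cells carry Sirpa and lectins such as Cd209a and mainly address CD4+ T cells. On maturation either kind gains Ccr7, the receptor that guides cells towards lymph nodes, and makes Ccl22 and Ccl17, which attract T cells through Ccr4. Plasmacytoid dendritic cells are a separate kind, marked by Siglech, Bst2 and Tcf4 and known for type I interferon. In the healthy brain dendritic cells are found mostly in the meninges and the choroid plexus.

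The genes that set the Xcr1/Clec9a cells apart from the other members are Xcr1 (chr9:123852315-123862029, minus strand of GRCm38, the assembly behind mm10) and Clec9a (chr6:129408862-129424763, plus strand). Their promoter windows are shown for a shared run of letters. Promoters were looked up for 46 genes of the report, not for all, and found for 34. Of these 34, Xcr1, Clec9a and Gcsam were the ones whose 250 bases before the start held TTTCNNNNTGA on either strand. That run is a composite of an AP-1 and an interferon regulatory factor element, of the kind bound by Batf3 with Irf8. Of all 32851 promoters of that length, 3.82% held it. The windows are from RefSeq (GRCm38.p6), at chr9:123862030-123862279 on the minus strand and chr6:129408612-129408861 on the plus strand, written 5′ to 3′ along the gene, with the match in capitals.
Xcr1: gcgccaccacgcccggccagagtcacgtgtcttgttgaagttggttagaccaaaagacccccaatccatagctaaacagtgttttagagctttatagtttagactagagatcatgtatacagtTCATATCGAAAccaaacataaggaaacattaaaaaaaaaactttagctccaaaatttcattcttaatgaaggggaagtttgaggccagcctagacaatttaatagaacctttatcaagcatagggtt
Clec9a: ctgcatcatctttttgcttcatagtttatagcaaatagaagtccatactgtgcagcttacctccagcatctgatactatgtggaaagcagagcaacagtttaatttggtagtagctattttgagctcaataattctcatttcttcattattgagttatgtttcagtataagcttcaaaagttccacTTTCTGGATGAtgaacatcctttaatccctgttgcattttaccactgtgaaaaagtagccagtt
The match in Xcr1 began 127 bases before the start and lay on the opposite strand. The match in Clec9a began 64 bases before it. In all, 8 motifs were searched on both strands. The other 7 were GGAANNGAAA, GAAANNGAAA, GGGNNTTTCC, the looser GGGNNTNNCC that contains it, TGANTCA, which can overlap the composite, CACGTG and CCAAT. They stood in 2.30%, 2.98%, 1.41%, 15.9%, 6.75%, 6.02% and 33.8% of all promoters. Among the genes looked up, GAAANNGAAA stood in Clec4b1, Gbp2, Ifi205 and Pilrb2, and GGGNNTTTCC in Nfkb2, Tlr3 and Tnfrsf9. TGANTCA stood in Bcl2a1b, Gbp2, Nfkb2 and Tnfrsf9, CACGTG in Xcr1 and GGAANNGAAA in none. GGGNNTNNCC and CCAAT stood in more of them. A match is a run of letters, and binding was not measured.

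Members made up 2.63% of the cells of tumour 1 (21 of 798, exact 95% binomial interval 1.64 to 3.99), 0.348% of tumour 2 (9 of 2589, 0.159 to 0.659) and 3.12% of tumour 4 (59 of 1893, 2.38 to 4.00). Tumour 3 held none among 1229 cells, but none of the 7 genes is listed for it, so no cell of it could meet the rule. The 0 was thus set by the list of genes. The exact 95% upper bound of 0.300% (3 cells would be 0.244%) does not bound the share there. The mean over tumours was 1.52% ± 1.58 (SD, n = 4), a spread as large as the mean, with that 0 counted. Without tumour 3 the mean was 2.03%. The interval of tumour 2, for which Ccl22 is not listed, lay below those of tumours 1 and 4. Intervals cover counting error only. The same order was not seen among the cells that passed the H2-Ab1 limit, which numbered 81, 118, 3 and 660 in tumours 1 to 4. Of those, members were 25.9% in tumour 1 (interval 16.8 to 36.9), 7.63% in tumour 2 (3.55 to 14) and 8.94% in tumour 4 (6.87 to 11.4). Most of the rest were C1q cells, which met the H2-Ab1 limit and had a mean C1q value of at least 1, and numbered 37, 57, 3 and 329.

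**Figure D1:**
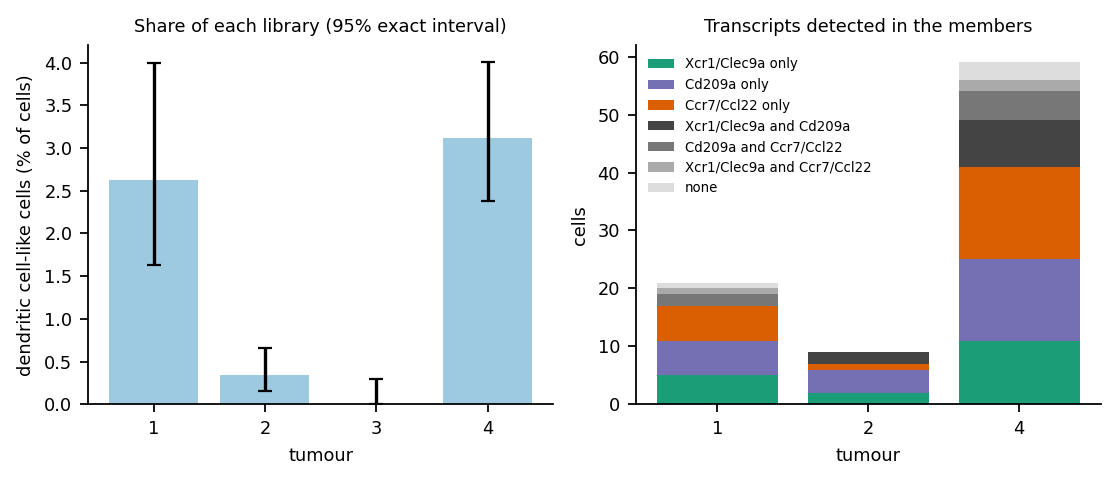
Left, members as a percentage of all cells of each tumour, with the exact 95% binomial interval; tumours 1 and 4 stand at 2.63% and 3.12%, tumour 2 at 0.348% and tumour 3 at 0. Right, the transcripts that set the subsets, as counts of members in tumours 1, 2 and 4, with the cells of more than 1 subset and of none shown separately.

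The libraries held 19446245, 23439893, 10458431 and 18242667 UMIs in tumours 1 to 4. Median UMIs per member were 9946, 7026 and 10947 in tumours 1, 2 and 4. C1q cells of the same tumours had medians of 11311, 7186 and 11027, so both classes were read at nearly the same depth. Any 2 libraries shared between 0 and 7 cell barcodes. Markers of other cell types were present in some members. Of the 59 members of tumour 4, 8 held at least 2 defining markers of another class (T cell in 2, granule progenitor in 3, neutrophil in 4), and in tumours 1 and 2 the numbers were 3 of 21 and 0 of 9. The summed level of the T cell list in members was 9.02, 32.7 and 192 CPM (UMIs of the genes scaled to a common total of UMIs) in tumours 1, 2 and 4, with Trac, Trbc1 and Themis at 0 in tumour 4. The B cell list gave 307, 180 and 209 CPM, with Cd79a at 0 in tumour 4. The macrophage and microglia list gave 1172, 1080 and 2047 CPM, against 55280, 68349 and 31426 CPM in C1q cells. The neutrophil list gave 126, 180 and 852 CPM, and 4434 CPM in the C1q cells of tumour 4. The granule progenitor list gave 546, 131 and 134 CPM, against 3708, 5733 and 3331 CPM in progenitor-gate cells, which held UMIs of at least 3 of Atoh1, Barhl1, Neurod1, Zic1 and Zic2 and none of Ptprc. No doublet caller was run, and the part of doublets in the results was not tested beyond leaving the mixed cells out. Without them members were 2.26%, 0.348% and 2.69% of tumours 1, 2 and 4.

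The values in this paragraph chose the members and are a description. Shares of cells with a UMI are given in members of tumours 1, 2 and 4 (median UMIs as above) and then in progenitor-gate cells of the same tumours, which should lack these genes and had medians of 17699, 8195 and 10528 UMIs. Of the chemokine receptors, Xcr1 was seen in 6 of 21, 3 of 9 and 15 of 59 members, and in 0.363%, 0.0923% and 0.296% of progenitor-gate cells. Ccr7 (chr11:99144196-99155077) was seen in 5, 1 and 15 members, and in 1.45%, 0 and 1.78% of progenitor-gate cells. These chemokine receptors steer where a dendritic cell goes. Of the lectins, Clec9a was seen in 4, 3 and 18 members, against 0.181%, 0 and 0.296%. Cd209a (chr8:3743397-3748984) was seen in 8, 6 and 27 members, against 1.63%, 0.0923% and 3.25%, and was the gene of the 7 found in most members of tumours 2 and 4. The chemokine Ccl17 (chr8:94810453-94812036) was seen in 11, 4 and 25 members, against 5.63%, 0.185% and 3.25%. Its neighbour Ccl22 (chr8:94745590-94751699) was seen in 7 of 21 and 16 of 59 members, against 3.81% and 0.592%, and is not listed in tumour 2. Il4i1 (chr7:44816387-44840809), a secreted enzyme that breaks down aromatic amino acids, was seen in 13, 2 and 25 members, against 2.00%, 0.231% and 1.78%. H2-Ab1 (chr17:34257689-34269419), the class II beta chain, had a level of 17042, 20831 and 13995 CPM in members. Progenitor-gate cells had 45.6, 10.0 and 199.5 CPM of H2-Ab1, and 57.9%, 9.0% and 84.0% of them held a UMI of it.

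The members just inside the limits had H2-Ab1 values of 5.23, 3.2 and 3.03 (lowest) in tumours 1, 2 and 4, with medians of 9.35, 7.27 and 7.39. Cells that met every other limit and missed this 1 numbered 11, 2 and 13, with highest values of 2.52, 1.66 and 2.82. The highest mean C1q value inside was 0.858, 0.365 and 0.891, and 11 of 21, 8 of 9 and 18 of 59 members had none of it. Outside that limit stood 3, 0 and 18 cells, with lowest values of 1.16 in tumour 1 and 1.01 in tumour 4. Exactly 2 of the 7 genes were found in 12, 8 and 43 members, 3 genes in 6, 1 and 10, and 4 or more in 3, 0 and 6. Class II-high cells low in C1q with 0 or 1 of the genes numbered 23, 52 and 272, so in tumours 2 and 4 many more such cells lay outside the limit of 2 genes than inside. In tumour 4, 92 of these held 1 of the genes and 180 held none.

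Most members belonged to 1 of 3 subsets by the genes that set them. Of the 89, 18 held Xcr1 or Clec9a alone, 24 Cd209a alone and 23 Ccr7 or Ccl22 alone, 20 held genes of more than 1 subset and 4 held none. In tumours 1, 2 and 4 the Xcr1/Clec9a cells numbered 5, 2 and 11, the Cd209a cells 6, 4 and 14 and the Ccr7/Ccl22 cells 6, 1 and 16. Ccl22 is not listed in tumour 2, so that cell was set by Ccr7 alone. Xcr1 and Clec9a were found together in 18 members, whereas Ccl22 was found with Xcr1 in 0 members and with Clec9a in 0. Ccl22 was found with Ccr7 in 11 members and with Il4i1 in 18. Ccl17 did not keep to a subset: it was found with Cd209a in 19 members and with Il4i1 in 19. Among the 18 members of tumour 4 outside the single subsets, 8 held Xcr1 or Clec9a with Cd209a, 5 held Cd209a with Ccr7 or Ccl22, 2 held Xcr1 or Clec9a with Ccr7 or Ccl22 and 3 held none of these genes. Because a low transcript can be missed in a cell that makes it, a subset here is a set of cells with a UMI, not a cell type shown by protein.

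**Figure D2:**
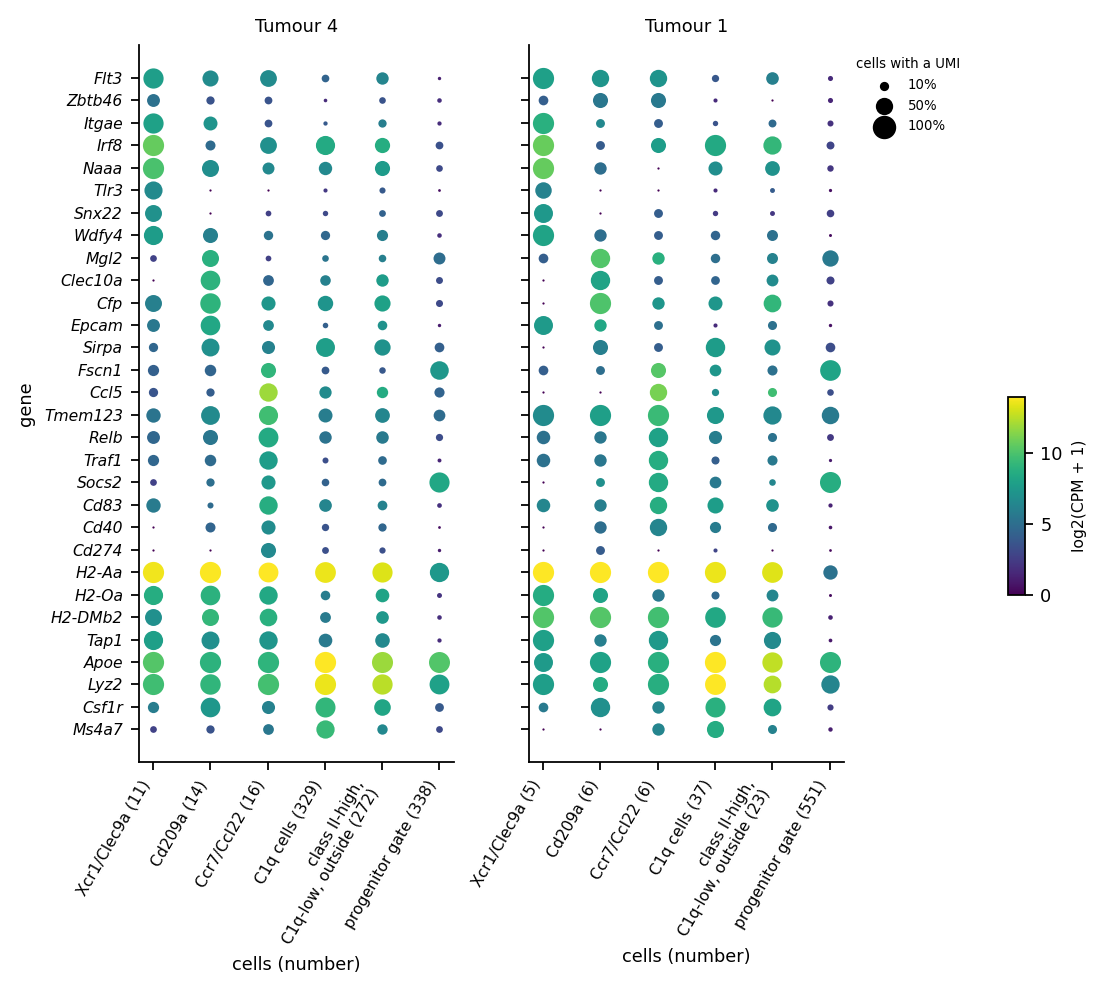
Levels of 30 genes in 6 groups of cells of tumours 4 and 1; dot size is the percentage of cells with a UMI and colour the level as log2(CPM + 1). In tumour 4 the groups hold 11 Xcr1/Clec9a, 14 Cd209a, 16 Ccr7/Ccl22, 329 C1q, 272 class II-high C1q-low cells outside the rule and 338 progenitor-gate cells, and Irf8, Clec10a and Ccl5 each peak in a different subset.

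Set against C1q cells of the same tumour, members had more transcript of dendritic lineage genes and less of macrophage genes. This contrast does not set members apart from class II-high C1q-low cells outside the rule, which are taken up below. A gene is called past 2-fold when the ratio of CPM + 10 between classes is over 2, among genes found in at least 10% of the cells of either class. The 7 genes, H2-Ab1 and the C1q genes are left out, and no p-value is given, because cells of a tumour are not replicates and only tumours 1 and 4 had 10 members. The C1q limit of the rule is part of this contrast, so its counts and levels are a description and no support for the name of the members. In tumour 4, 238 of 7652 genes were higher past 2-fold in members (3.11%) and 369 lower (4.82%). In tumour 1 the shares were 7.3% and 9.65% of 7847 genes, and in tumour 2 they were 19% and 20.1% of 7296, where only 9 members were compared. Of the genes higher in tumour 4 and tested in both, 125 of 200 were higher in tumour 1 (25% of the 500 higher there) and 161 of 196 in tumour 2 (16.4% of 979).

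The dendritic lineage list had 12 of 16 genes higher and 0 lower in tumour 4, with a median log2 ratio of 1.27 beside 0.0024 for all genes. The counts were 11 of 16 in tumour 1 and 13 of 15 in tumour 2. Flt3 (chr5:147330741-147400489), the growth factor receptor on which dendritic cells depend, had 176, 262 and 158.5 CPM in members of tumours 1, 2 and 4 and 13.1, 0 and 20.8 CPM in C1q cells. It was seen in 40 of 59 members of tumour 4 and in 40 of 329 C1q cells, a ratio of 7.64 (95% Poisson interval 5.66 to 10.4). In tumour 2, where C1q cells had none, the level was at least 37.8-fold higher. Every tumour with members had the higher level of Flt3 in members. Zbtb46, a transcription factor of conventional dendritic cells, had 40.6, 32.7 and 14.9 CPM against 2.18, 0 and 2.24, and was seen in 9 of 59 members of tumour 4. Id2, a factor needed for type 1 cells, had 1041, 2062 and 858 CPM against 161.5, 233.5 and 244.5. Batf3 had 149, 147 and 94.8 CPM against 39.3, 11.6 and 38.4. Dpp4, a surface peptidase, had 98.9 CPM against 17.7 in tumour 4, and Kmo, an enzyme of tryptophan breakdown, had 62.3 against 11.2. Itgax, which encodes CD11c, had 126, 196 and 191 CPM in members against 96.0, 55.5 and 138, past 2-fold in tumour 2 alone. Irf8 was past 2-fold in none of them, with log2 ratios of 0.92, 0.61 and 0.92 in tumours 1, 2 and 4. Of the markers that define the lineage, Flt3, Zbtb46, Id2 and Batf3 were higher in members of tumours 1, 2 and 4. Itgax and Irf8 did not separate the classes past 2-fold in tumours 1 and 4.

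Genes with the highest ratios in tumour 4 included adhesion molecules. Amica1, also called Jaml, had 247 CPM in members (46 of 59 cells) and 26.6 in C1q cells, a ratio of 9.26. Epcam, an adhesion molecule of epithelia and of some dendritic cells, had 180, 344 and 152 CPM in tumours 1, 2 and 4 against 2.18, 0 and 17.7. Itgae, the alpha chain of CD103, had 167, 164 and 131 CPM against 10.9, 0 and 14.3. Both were higher past 2-fold in all 3 tumours. Klrd1, a lectin-like receptor also made by NK cells, was seen in 15 of 21, 5 of 9 and 33 of 59 members. Its level was 162, 98.2 and 146 CPM, against 0, 0 and 24.4 in C1q cells. The NK cell list as a whole summed to 171, 98.2 and 188 CPM in members, of which Klrd1 was the larger part in each tumour. Fscn1 (chr5:142960343-142973185), which bundles actin in mature dendritic cells, had 165 CPM against 14.02 in tumour 4. Ccl5 (chr11:83525778-83530518) had 982 CPM against 104 and was seen in 22 of 59 members and 108 of 329 C1q cells. It was seen in 0 of 9 members of tumour 2, so the higher level of Ccl5 was not shared by all tumours.

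**Figure D3:**
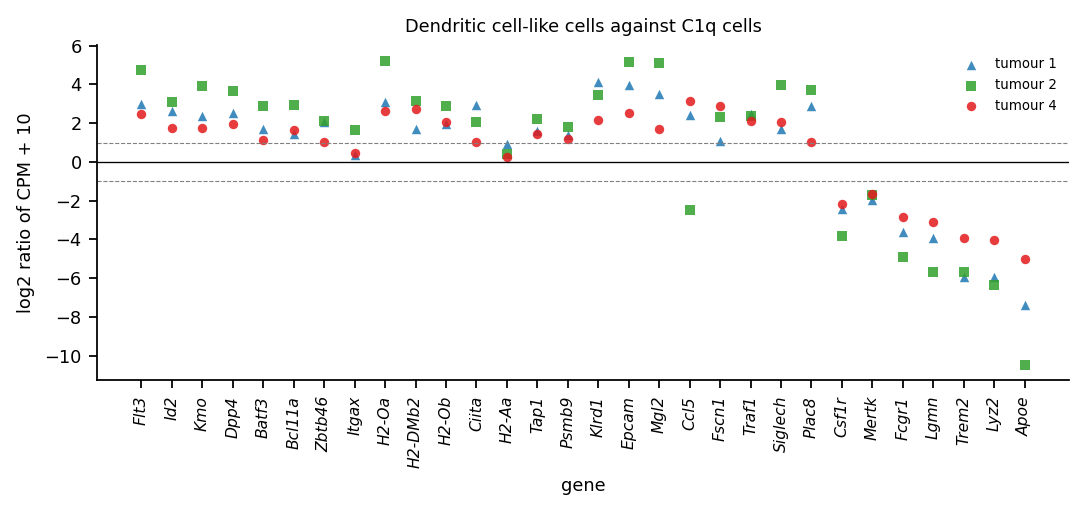
Log2 ratio of CPM + 10 between members and C1q cells for 30 genes in tumours 1, 2 and 4, with dashed lines at a 2-fold ratio either way. Flt3 lies above the upper line and Apoe and Lyz2 below the lower line in all 3 tumours.

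Macrophage genes were the lowest, in a contrast where the C1q limit of the rule itself sets the classes apart. Of 15 genes of the macrophage and microglia list, 13 were lower in tumour 4, with a median log2 ratio of -2.18, and Siglech, which plasmacytoid dendritic cells also make, was higher. Apoe, an apolipoprotein of lipid-laden macrophages and microglia, had 293, 32.7 and 816 CPM in members of tumours 1, 2 and 4. C1q cells had 50201, 60917 and 26340 CPM of Apoe. Lyz2, lysozyme, had 316, 213 and 742.5 CPM against 19583, 18031 and 12361. The members of tumour 4 had more Apoe than those of the other tumours, and their C1q cells less. Csf1r, the receptor for the macrophage growth factor, had 123 CPM in members against 593 in tumour 4, with log2 ratios of -2.42, -3.81 and -2.18 in tumours 1, 2 and 4. Trem2, a lipid receptor, had 12.2 against 321, Mertk, a receptor for dying cells, had 1.35 against 25.5, and Cx3cr1, the fractalkine receptor, had 46.1 against 377.5 in tumour 4. Ccr2, which draws monocytes and monocyte-derived cells from the blood, had 230 CPM against 639 in tumour 4, whereas in tumour 1 its log2 ratio was 0.75. Of 11 monocyte genes 8 were lower and 2 (Ly6c2 and Plac8) higher in tumour 4. The highest counts of Ly6c2 there, 41, 24, 23 and 16 UMIs, lay in members with at least 6 of 14 plasmacytoid genes. Members with fewer of those genes held at most 4 UMIs of Ly6c2 each. Of 12 plasmacytoid genes 9 were higher, with a median log2 ratio of 1.65, a pattern taken up by cell below.

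Members and C1q cells both had to meet the H2-Ab1 limit, so like amounts of the class II chains are partly set by the rule. The classes differed in some genes of peptide exchange and in Ciita. H2-Aa, the class II alpha chain, had 23173, 23073 and 14423 CPM in members of tumours 1, 2 and 4 and 12363, 17148 and 12223 CPM in C1q cells. Its log2 ratios were 0.91, 0.43 and 0.24, and those of the invariant chain Cd74 were 0.50, 0.34 and 0.33, none past 2-fold. H2-Oa, a chain of the H2-O complex that restrains peptide exchange, had 297.5, 884 and 402 CPM against 26.2, 13.9 and 57.5. That is a ratio of 7.0 in tumour 4 (interval 5.84 to 8.40). Its partner H2-Ob had 81.2, 147 and 167 CPM against 13.1, 11.6 and 32.8. H2-DMb2, of the complex that catalyses peptide exchange, had 1123, 1129 and 413 CPM against 336, 118 and 53.3. Ciita, the factor that switches class II genes on, had 131, 147 and 112.5 CPM against 8.73, 27.7 and 50.8. These 4 genes were the class II genes higher in tumour 4, of 15, and were higher in tumours 1 and 2 as well. The lysosomal proteases that cut the invariant chain and antigens were on the other side. Lgmn had 194 CPM in members against 1766 in tumour 4, with log2 ratios of -3.91, -5.67 and -3.12 in tumours 1, 2 and 4. For Ctss the ratios were -1.60, -2.11 and -1.33. The median of the class II list was 0.28 in tumour 4, so the list as a whole lay near all genes.

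For class I, 4 of 19 genes were higher in tumour 4 and 0 lower, with a median log2 ratio of 0.50, where 3.11% of all genes were higher and 4.82% lower. Tap1, a subunit of the peptide pump into the endoplasmic reticulum, had 144, 262 and 157 CPM in members of tumours 1, 2 and 4 against 41.5, 48.5 and 52.2. Psmb9, an immunoproteasome subunit, had 365, 507 and 324 CPM against 135, 141 and 135. The light chain B2m was close to level in tumour 4, with a log2 ratio of -0.22. Of 14 receptors for antigen uptake 8 were lower and 3 higher in tumour 4, with a median log2 ratio of -1.62. The lower ones included the Fc receptor Fcgr1 (28.4 against 262 CPM) and the scavenger receptor Msr1 (5.42 against 92.5 CPM). The higher ones were Cd36, Ly75, which encodes the antigen receptor DEC-205 (21.7 against 1.68 CPM), and Timd4, a receptor for dying cells (21.7 against 1.40 CPM). Of 14 co-stimulatory genes and checkpoint ligands 6 were higher and 2 lower in tumour 4, with a median of 0.84. Icosl, which addresses the T cell receptor Icos, had 74.5 CPM in members and 19.9 in C1q cells of tumour 4. Cd40 had 43.4 and 11.5 there, and 49.6 and 56.7 in tumour 1, so the sign was not shared. Cd47, a signal against engulfment, had 500.4, 671 and 490.5 CPM in members of tumours 1, 2 and 4 against 170, 183 and 219, and was higher past 2-fold in each.

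Within the members, Xcr1/Clec9a cells were set against the other single-subset members of the same tumour. In tumour 4 that is 11 against 30 cells and in tumour 1 it is 5 against 12. Tumour 2 had too few cells to compare. Median UMIs in tumour 4 were 15268 in Xcr1/Clec9a, 11128.5 in Cd209a and 10525.5 in Ccr7/Ccl22 cells. In tumour 1 they were 11604, 9598.5 and 9120.5, so numbers of cells with a UMI are not at equal depth. The comparisons of the 3 subsets share cells, and a list's count is over its genes that pass the limit of 10% of cells, some of which pass through the higher group alone, so the counts describe these cells and are no test. Of 7992 genes tested in tumour 4, 716 were higher (8.96%) and 942 lower (11.8%), and in tumour 1 the shares were 16.6% and 30.7%. The calls of the 2 tumours agreed only in part. Of 519 genes higher in tumour 4 and tested in both, 185 were higher past 2-fold in tumour 1 and 101 lower past 2-fold. Of 704 lower ones, 366 were lower there and 59 higher. The type 1 conventional list had 17 of 19 genes higher and 0 lower in tumour 4, with a median log2 ratio of 2.60 beside -0.0055 for all genes. In tumour 1 it had 17 of 19 higher with a median of 3.27 beside -0.20. The list holds 21 genes, and those left out did not pass the limit of 10% of cells or are not listed in tumour 4. Irf8 (chr8:120736358-120756694), the factor on which type 1 cells depend, had 1659 CPM in the Xcr1/Clec9a cells of tumour 4 and 75.1 in the others. It was seen in 11 of 11 against 13 of 30 cells, a ratio of 22.1 (interval 14.9 to 34.1). In tumour 1 the levels of Irf8 were 1727 and 112 CPM. Naaa, an acid amidase, had 1006 CPM against 106 in tumour 4 and 1658 against 16.0 in tumour 1. The gene 5430435G22Rik, now called Rab7b and active in endosomal transport, was seen in 11 of 11 cells and in 0 of 30 others, at least 26.8-fold higher. Tlr3, the sensor of double-stranded RNA, was seen in 8 of 11 cells against 0 of 30 in tumour 4 and in 3 of 5 against 0 of 12 in tumour 1. In tumour 4 its level was at least 12-fold higher. Gcsam, an adaptor of the germinal centre, was seen in 9 of 11 against 0 of 30 cells.

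Other genes of the type 1 list and their partners followed. Id2 had 1953 CPM against 428 in tumour 4 and 2694 against 120 in tumour 1. Batf3 had 182 against 64.0 and 311 against 87.9. Wdfy4, needed to present engulfed antigen on class I, had 206 against 52.8 in tumour 4, and the immunoproteasome gene Psmb9 had 600 against 200. Cxcr3, a receptor for interferon-induced chemokines, had 82.4 against 5.56, and the checkpoint receptor Havcr2, which encodes TIM-3, had 123.5 against 16.7. Cadm1, an adhesion molecule often used as a marker, was not past 2-fold, with 23.5 CPM against 16.7. Zbtb46 had opposite signs in the tumours, with a log2 ratio of 1.10 in tumour 4 and -1.09 in tumour 1. The lowest genes of tumour 4 included Ccl5 (11.8 against 1947 CPM), Tmem176b (23.5 against 745 CPM), S100a4 (58.8 against 1143 CPM) and Clec10a (0 against 273 CPM). Of 23 type 2 genes 16 were lower, and of 32 maturation genes 24 were lower, in a contrast whose other side holds the Ccr7/Ccl22 cells. By cell, the median of the maturation list was 0.33 in Xcr1/Clec9a and 0.51 in Cd209a cells of tumour 4 and 0.77 and 0.62 in tumour 1. In tumour 2 it was 0.31 and 0.20, in only 2 and 4 cells with median UMIs of 9655.5 and 6143, too few to compare. By cell, the mean log2 value over the type 1 list had a median of 1.71 (range 0.35 to 1.91) in the Xcr1/Clec9a cells of tumour 4, against 0.43 in Cd209a cells and 0.32 in Ccr7/Ccl22 cells. In tumour 1 the medians were 2.64 (2.28 to 2.88), 0.43 and 0.42, and there the ranges did not meet.

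**Figure D4:**
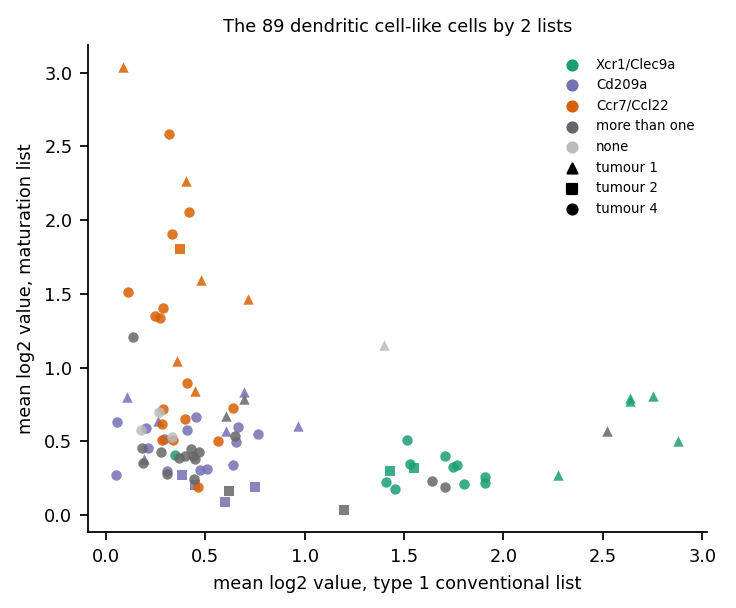
Each of the 89 members by its mean log2 value over the type 1 conventional list (horizontal) and over the maturation and migration list (vertical), coloured by subset and marked by tumour. Xcr1/Clec9a cells stand to the right, with medians of 1.71 in tumour 4 and 2.64 in tumour 1, and part of the Ccr7/Ccl22 cells stand high.

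Cd209a cells were compared in the same way. In tumour 4, 14 of them were set against 27 others, and 758 of 8027 genes were higher (9.44%) and 669 lower (8.33%). In tumour 1, 6 were set against 11, with shares of 30.5% and 15.4%. Of 553 genes higher in tumour 4 and tested in both, 263 were higher past 2-fold in tumour 1 and 56 lower past 2-fold. Of 536 lower ones, 168 were lower there and 111 higher. Of 23 type 2 conventional genes tested (24 in the list) 12 were higher and 0 lower in tumour 4, with a median log2 ratio of 1.07. In tumour 1, 13 of 22 were higher and 1 lower, with a median of 1.64 beside 0.40 for all genes. The background was itself high in tumour 1. Genes of the granule progenitor list were higher beside it, 6 of 12 tested and 0 lower in tumour 1 and 3 of 8 and 0 lower in tumour 4. That list summed to 1209 CPM in the Cd209a, 121 in the Xcr1/Clec9a and 478 in the Ccr7/Ccl22 cells of tumour 1, and to 263, 58.8 and 107 CPM in tumour 4. Its part in the result was not tested. In tumour 4 the leading genes of the type 2 list were lectins of the same kind as Cd209a, which bind sugars on microbes and glycoproteins. In tumour 1 Itgam had the highest ratio of the list, followed by Clec10a. Mgl2 had 472 CPM (9 of 14 cells) against 5.76 (2 of 27) in tumour 4, a ratio of 81.9 with a wide interval of 22 to 687. In tumour 1 it had 1193 against 253 CPM. Clec10a had 516 CPM (12 of 14 cells) against 11.5 in tumour 4 and 279 against 8.43 in tumour 1. Cfp, properdin of the alternative complement pathway, had 532 against 115 and 1085 against 84.3.

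Among further genes of the Cd209a cells, some were past 2-fold in both tumours and some in tumour 4 alone. Itgam, which encodes CD11b, had 98.7 CPM against 28.8 in tumour 4 and 155 against 0 in tumour 1, at least 6.12-fold higher there. Sirpa, the receptor for Cd47, had 126 against 49.0, and the inhibitory Fc receptor Fcgr2b 175.5 against 28.8 in tumour 4. Csf1r had 170 against 66.2 in tumour 4 and 124 against 67.5 in tumour 1, where it was not past 2-fold. Dab2, an endocytic adaptor, had 82.3 against 8.64 in tumour 4 and 325 against 16.9 in tumour 1. Klf4, a factor of part of the type 2 cells, had 126 against 54.7 in tumour 4, whereas Irf4, the factor most tied to them, was not past 2-fold with 21.9 against 14.4. Genes of the other subsets were low: Irf8 had 27.4 CPM against 875 and Ccl5 16.5 against 2013. Of 15 interferon response genes 6 were higher in tumour 4, and they rested on few cells, with Isg15 in 3 of 14, Ifit1 in 2 of 14 and Ifit3 in 2 of 14. In tumour 1, 3 of 13 were higher and 4 lower, with a median of -0.78 beside 0.40 for all genes, so the tumours differed in sign.

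Ccr7/Ccl22 cells had most transcript of maturation genes. In tumour 4, 16 were set against 25 others, and 733 of 8017 genes were higher (9.14%) and 967 lower (12.1%). In tumour 1, 6 were set against 11, with shares of 24.5% and 21.4%. Of 541 genes higher in tumour 4 and tested in both, 272 were higher past 2-fold in tumour 1 and 67 lower past 2-fold. Of 770 lower ones, 289 were lower there and 108 higher. Of 33 maturation and migration genes tested (36 in the list) 28 were higher and 0 lower in tumour 4, with a median log2 ratio of 2.26 beside -0.12 for all genes. In tumour 1, 29 of 34 were higher and 2 lower, with a median of 2.10. The chemokine Ccl5, which attracts T cells, had the highest ratio, with 3932 CPM (12 of 16 cells) against 14.2 (4 of 25) in tumour 4, a ratio of 277 (interval 118 to 856). Of its 697 UMIs in those 16 cells, 2 cells held 305 and 277, and 34 lay in a cell with Cd3e and Cd3g. In tumour 1 Ccl5 had 2242 CPM (4 of 6 cells) against 0, at least 91.5-fold higher, and 2 cells held 82 and 48 of its 136 UMIs. The ratio of Ccl5 thus rested mainly on 2 cells in each tumour. Fscn1 had 564 CPM (8 of 16 cells) against 19.9 (7 of 25) in tumour 4, a ratio of 28.4 (13.3 to 72.4), and 1253 against 24.5 in tumour 1. Pooled levels of both genes came from some of the cells, since Fscn1 was missing from the other 8 cells. Relb, the NF-kB subunit tied to dendritic cell maturation, was seen in 14 of 16 cells, with 355 CPM against 34.1 in tumour 4 and 264 against 40.8 in tumour 1. The maturation marker Cd83 had 429 against 39.7 and 429 against 73.5. Traf1, an adaptor of the TNF receptor family, had 214 against 25.5 and 412 against 40.8. Fabp5, a fatty acid carrier, had 2662 against 113.5 and Socs2, a brake on cytokine signals, 175 against 19.9 in tumour 4.

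Of 16 co-stimulatory genes and checkpoint ligands, 9 were higher and 1 lower in the Ccr7/Ccl22 cells of tumour 4, where 9.14% of all genes were higher, with a median log2 ratio of 1.80. In tumour 1, 11 of 16 were higher and 3 lower, where 24.5% of all genes were higher, with a median of 1.41. The lower ones in tumour 1 were Lgals9, Havcr2 and 4632428N05Rik, now called Vsir. Cd274, which encodes PD-L1, was seen in 8 of 16 cells of tumour 4 and in 0 of 25 others (95.9 CPM, at least 11.3-fold higher), and in 0 of 6 Ccr7/Ccl22 cells of tumour 1. The PD-L1 transcript was therefore found in these cells in 1 of the 2 tumours compared. Pdcd1lg2, which encodes PD-L2, had 73.3 CPM against 2.84 in tumour 4. Cd40, which receives help from T cells, had 107 against 11.4, and Cd80 79.0 against 8.52 with 115 against 0 in tumour 1. Cd86, the other ligand of Cd28, had 197 against 182 CPM in tumour 4 and 412 against 155 in tumour 1, past 2-fold in tumour 1 alone. The interleukin 12 chain Il12b was seen in 2 of 16 cells of tumour 4 and in 2 of 6 of tumour 1, and Il6 in 2 cells of tumour 4. Il7r, which mature dendritic cells share with lymphocytes, was seen in 8 of 16 cells, with 141 CPM against 25.5. The class II chain H2-Aa was level, with log2 ratios of 0.19 in tumour 4 and -0.09 in tumour 1. The peptide exchange gene H2-DMb1 was lower, with 372 against 999 CPM in tumour 4 and 363 against 1290 in tumour 1. So was March1, the ligase that removes class II from the surface, with 11.3 against 76.6 and 0 against 114. T cell transcripts were also met here: Cd3e and Cd3g were each seen in 2 of the 16 cells, and all 4 T cell genes tested were higher.

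Maturation genes were also set against the amount of Ccr7 and Ccl22 in a cell. Members of tumour 4 with either gene numbered 23, of which 10 held at least 5 UMIs of both together and 13 held 1 to 4, a limit set after the values were seen. The 10 cells held 106 UMIs of Fscn1 and the 13 held 5. They held 673 and 44 UMIs of Ccl5, 524 and 33 of Fabp5, and 72 and 11 of Cd83. Relb was seen in 10 of 10 and in 8 of 13 cells. Summed over the maturation list the level was 18509 CPM in the 10 cells and 2176 in the 13. In tumour 1 it was 13381 CPM in the 5 cells of at least 5 UMIs and 2291 in the 4 cells of 1 to 4. In tumour 2 the single cell, with 4 UMIs of Ccr7, had 14014 CPM and 8 UMIs of Fscn1, so a low number of UMIs there stood beside a high level of the list. The chemokine Ccl17 and the enzyme Il4i1, both used by the rule, followed with 330 and 18 UMIs and with 80 and 14 UMIs. No UMI of Xcr1, Clec9a, Cd3d, Cd3e or Cd3g fell in the 10 cells, and the T cell transcripts named above came from 2 of the 13. Progenitor-gate cells of tumour 4 held a UMI of Ccr7 in 1.78% and of Ccl22 in 0.592%.

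**Figure D5:**
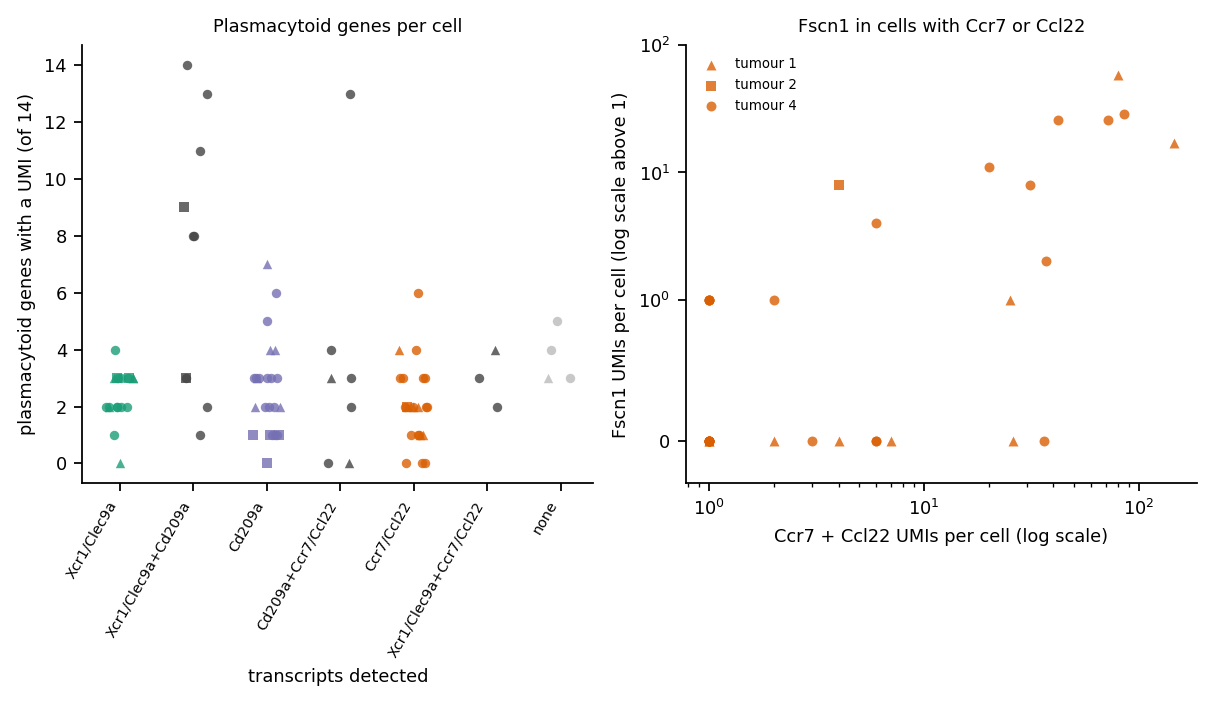
Left, the number of the 14 plasmacytoid genes with a UMI in each member, by the transcripts it holds; 5 of the 8 tumour 4 cells with Xcr1 or Clec9a and Cd209a have at least 6. Right, UMIs of Fscn1 against summed UMIs of Ccr7 and Ccl22 on log scales, in each member with a UMI of either gene. In tumour 4 the cells with at least 5 UMIs hold 106 of Fscn1 and those with 1 to 4 hold 5.

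Plasmacytoid genes were found together in some members, most often those with Xcr1 or Clec9a together with Cd209a. Of 14 plasmacytoid genes, 8 of the 59 members of tumour 4 held at least 6, and so did 1 member each of tumours 1 and 2. The member of tumour 1 held no UMI of Siglech, Ccr9, Klk1 or Cox6a2. It was the deepest member there, with 17588 UMIs. That limit was also set after the values were seen. Among the 8 members of tumour 4 with Xcr1 or Clec9a and Cd209a, 5 reached it (median 8 genes, range 1 to 14). Of the Ccr7/Ccl22 cells 1 of 16 did, of the Cd209a cells 1 of 14, of those with Cd209a and Ccr7 or Ccl22 1 of 5, and of the Xcr1/Clec9a cells 0 of 11. The Ccr7/Ccl22 and the Cd209a cell that reached it held exactly 6 of the genes. They had 3 and 1 UMIs of Siglech and none of Cd209d, Klk1 or Cox6a2. The levels of these genes in the 8 members that reached it restate that choice and are a description. Siglech (chr7:55768178-55778925), a lectin of plasmacytoid cells and microglia, was seen in 8 of 8, at 1475 CPM, against 29.4 CPM in the Xcr1/Clec9a cells. The antiviral membrane protein Bst2 had 3551 CPM and the transcription factor Tcf4, on which plasmacytoid cells depend, 716 CPM, both in 8 of 8. The gut-homing receptor Ccr9 was seen in 7 of 8 at 759 CPM, against 47.1 CPM in Xcr1/Clec9a cells. Cox6a2 and Klk1 were each seen in 5 of 8, and had 0 CPM in Xcr1/Clec9a cells. Clec9a was seen in 5 of the 8 and Cd209a in 7, whereas Xcr1 was seen in 0. Cd209d, a lectin gene near Cd209a, was seen in 6 of 8. In tumour 1 it was also seen in 6 of 6 Cd209a cells and in 0 of 11 other single-subset members. H2-Ab1 had 5669 CPM in the 8 cells, against 14495 in Xcr1/Clec9a cells and 15317 in Cd209a cells. A cell could thus pass the rule through Clec9a and Cd209a with plasmacytoid genes and a low level of class II. Over all cells of tumour 4, 29 reached 6 genes, of which 8 were members and 15 class II-high C1q-low cells outside the rule. Without these members the genes higher and lower against C1q cells numbered 218 and 397 in tumour 4.

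Genes whose values ran most like those that set the subsets were ranked over the 59 members of tumour 4, by Spearman correlation over 3947 genes, as a description. The cells share a library and differ in depth. Nearest to Xcr1 were Evl (0.73), Naaa (0.72) and St3gal5 (0.70), and nearest to Clec9a Irf8 (0.66). Nearest to Ccr7 were Cd83 (0.54), Gpr132 (0.53) and Tbc1d4 (0.53), and to Ccl22 Relb (0.66) and Bcl2a1b (0.59). Nearest to Cd209a were Clec10a (0.75), Milr1 (0.61) and Cd300a (0.58). The same cells and genes set the subsets, so these ranks restate the comparisons of subsets and add no support to them.

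Partners of the members' receptors and chemokines were looked for in other cells of tumour 4, gated by at least 2 markers of T cells or of NK cells. Progenitor-gate cells give the background. Xcl1, the ligand of Xcr1, gave 298 UMIs in 42 of 152 T cells (313 CPM) and 75 UMIs in 10 of 10 NK cells, against 14 UMIs in 2 of 59 members and 1.32 CPM in progenitor-gate cells. Flt3l, the growth factor for Flt3, was seen in 40 of 152 T cells, with 52.5 CPM against 2.20. Cd40lg, the ligand of Cd40, was seen in 34 of 152, with 54.6 CPM against 0, and Cd28, the receptor of Cd80 and Cd86, in 89 of 152, with 207 CPM against 1.10. Ccr4, the receptor of Ccl17 and Ccl22, gave 6 UMIs in 5 T cells. Of the ligands of Ccr7, Ccl21a gave 1 UMI in members and Ccl19 is not listed in tumour 4. Contact between cells was not measured. Among cytokine genes, Il12b was seen in 2 and Il12a in 1 of 59 members, and the chemokines Cxcl9 and Cxcl10 in 0 and 1.

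Some members were in cycle by their transcripts. At least 2 of 5 mitotic genes were seen in 9 of 59 members of tumour 4 (15.3%, exact interval 7.22 to 27.0), in 2 of 21 of tumour 1 and in 1 of 9 of tumour 2. C1q cells of tumour 4 gave 33 of 329 (10.0%), and a difference between the classes was not tested. Compared with the 272 class II-high C1q-low cells outside the rule, members of tumour 4 had few higher genes, 77 of 7456 (1.03%), and 190 lower (2.55%). The rule genes are left out of these counts, but the number of the 7 genes found is what parts the classes, so nothing is read from the counts. Of the lower genes, the neutrophil and monocyte genes S100a8 and S100a9 had 264 and 385 CPM in members against 2589 and 2942, and Lyz2 had 742.5 against 6093. Fscn1 was among the 12 highest genes, whose log2 ratios ran from 2.91 to 1.36. Flt3, H2-Oa, H2-DMb2, Epcam, Itgae and Amica1 were not. In tumour 1 Flt3, H2-Oa, Epcam and Itgae were past 2-fold. The dendritic lineage list there had a median log2 ratio of 0.53 against outside cells and 1.47 against C1q cells. Its higher level was thus partly shared by the outside cells.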

How the data were processed

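Single-cell libraries of 4 tumours were measured by droplet sequencing (10x Genomics), per the labels' protocols. The programs Cell Ranger and Seurat and the build mm10 are named in the submitters' processing notes. Versions, cell filters and any doublet removal are not given in the sources used here. Per the labels and files, the values deposited by the authors are log2 values, which from the values themselves are log2(UMI count / size factor + 1), and all of them gave whole UMI counts. Nothing was filtered further. The deposited lists of genes differ between tumours. Tumour 1 lists 33219 genes, some of them found in 0 cells. Tumours 2, 3 and 4 list 14833, 13622 and 15359 genes, each found in at least 5 cells. A gene not listed was counted as 0, although some cells may have held it, so shares and subsets of the tumours are not on equal terms. UMIs were summed over the cells of a class within each tumour and given as CPM, and ratios are log2 of CPM + 10, called past 2-fold among genes found in 10% or more of the cells of 1 class. Intervals are exact Clopper-Pearson and Poisson at 95%, and cover counting error only. A test over tumours was planned where at least 3 tumours had 10 cells of both classes, which was not met, so no p-value is given. Single values in tumours 1 and 2 needed 5 cells of each class. The code for the calls was run on simulated UMI counts with known fold changes, which checks the code alone and not the calls in these cells. Named genes are those of fixed lists and, in each comparison, the 12 with the highest and 6 with the lowest ratio in tumour 4 among genes found in 25% of the higher class. The members and lists were chosen with earlier results of these data known. Old symbols were matched through RefSeq synonyms, and 461 of 474 symbols had a position in GRCm38. Promoters are from RefSeq (GRCm38.p6). Other settings tried were the limits of the rule, pseudocounts, no filter, thinned cells, mean log2 values, cells of mixed markers and, added after seeing the data, the plasmacytoid pattern and cells with 2 or more UMIs of the subset genes. Analyses used Python 3.11.15, numpy 2.4.6, pandas 2.3.3, scipy 1.17.1 and matplotlib 3.10.9.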

Additional observations from a re-analysis of the deposited data

How the results depend on the processing

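Shares depended on the limits of the rule. With at least 1 of the 7 genes they were 4.14%, 1.08% and 7.98% in tumours 1, 2 and 4 and 3.30% on average, and with at least 3 they were 1.13%, 0.0386% and 0.845%. With a mean C1q value below 0.5 they were 1.38% in tumour 1 and 2.27% in tumour 4. Without each tumour in turn the mean over tumours ran from 0.993% to 2.03%. No paired analysis was possible because the 4 tumours form 1 group with no numbered pairs, and a test of cell classes within tumours needed 10 cells of both classes in 3 tumours by the plan, which 2 tumours reached. The comparison with C1q cells was not repeated without each tumour in turn, since too few tumours held 10 members.

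Counts of genes past 2-fold moved with the pseudocount and the summary of cells. Higher and lower genes against C1q cells numbered 556 and 673 with 1 CPM, 62 and 134 with 50 CPM, 13 and 75 with a difference of 1 in mean log2 value, and 454 and 758 with at least 3 of the 7 genes. For Xcr1/Clec9a cells they were 1285 and 1639 with 1 CPM, 81 and 127 with 50 CPM and 42 and 31 with mean log2 values. For Cd209a cells they were 1319 and 1330, 63 and 57, and 33 and 9. For Ccr7/Ccl22 cells 1695 genes were lower with 1 CPM, 122 were higher and 82 lower with 50 CPM, and 28 and 38 with mean log2 values. Thinned cells gave 1541 higher genes in Xcr1/Clec9a cells. With cells of more than 1 subset kept, lower genes numbered 437 and 421 in Xcr1/Clec9a and Cd209a cells, and Ccr7/Ccl22 cells had 357 higher and 488 lower genes. With subset cells of at least 2 UMIs of their setting genes, a setting added after seeing the data, higher and lower genes numbered 901 and 1064 in Xcr1/Clec9a, 871 and 859 in Cd209a and 755 and 1211 in Ccr7/Ccl22 cells. The check covered 1375 values of 140 pairs of a named gene and a comparison, and some genes stood in more than 1 comparison. No called gene changed sign between these settings, and 387 values moved by more than counting error. The number moved may be too low, since a ratio with no UMI in 1 class has no closed interval. The settings changed limits and summaries, with gene counts from tumour 4, and did not compare tumours. Between tumours signs did change, as for Zbtb46 in Xcr1/Clec9a cells. With 5 to 16 cells a side, levels of low genes rest on few UMIs.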
